A study of Mus musculus with 2 samples.

Results

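The cells described here are those that the study's authors placed in their astrocyte cluster, a group of 134 of the 10804 cells of the series. They were taken as all columns of the deposited table of that name, with no further selection, and 130 came from the iKD library and 4 from the WT library. The experiment asked what loss of VEGF in neural stem and progenitor cells does to these cells in the adult mouse dentate gyrus (DG). The WT mice were NestinCreERT2+/-; Vegfa wt/wt; ROSA-LoxSTOPLox-EYFP+/+ and the iKD mice their NestinCreERT2+/-; Vegfa lox/lox; ROSA-LoxSTOPLox-EYFP+/+ littermates, aged 7 to 10 wk at the start. All mice in both groups received tamoxifen (TAM) at 180 mg/kg/d for 5 d, which switches on Cre in cells that use the Nestin promoter, and EYFP+ cells were sorted from dissected DG after 21 d. The DGs of 5 mice were pooled into 1 library for each genotype, so no comparison of genotypes was made and no test is available. A cluster cut from these cells cannot be tested against the rest on the same genes either, and all values below are descriptions with counting intervals.

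The choroid plexus is a folded epithelium in the ventricles that makes cerebrospinal fluid. Its cells carry ion pumps and channels on an apical brush border, bear tufts of cilia, and secrete transthyretin (Ttr), a carrier of thyroid hormone and of retinol-binding protein. Astrocytes are the star-shaped glia of brain tissue, coupled by connexins and known for glutamate uptake and water channels. Both cell types descend from neural epithelium, and both use the transcription factor Sox9.

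The name astrocyte went against most of the marker genes in these cells. A UMI marks 1 captured RNA molecule, and the expression level of a gene is given as counts per 10,000 UMIs, averaged over cells. Ttr was at 1019 in the cluster and took 9.90% of all its UMIs, compared with a level of 8.80 in the highest of the other 11 clusters. Of the 8 genes listed for choroid plexus identity, at least 5 had a UMI in 118 of 134 cells, or 88.1% (95% exact binomial interval 81.3 to 93.0). The same held for 1 of 10670 cells in the other 11 clusters, a cell of the eNB cluster. The cluster is therefore called by its leading genes, the Ttr- and Enpp2-rich cluster, in what follows. The paper based its name on high quiescence genes, high Clu, Id3 and Tubb4b, and a lack of neuronal and cell cycle genes. Clu, Id3 and Tubb4b were high here too, at 6.68, 3.14 and 17.4, compared with 0.0507, 0.00698 and 0.414 in the other cells.

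Depth was similar inside and outside the cluster. The 134 cells held from 1852 to 11981 UMIs with a median of 7722, and the cells of the other 11 clusters a median of 7563. Genes per cell ran from 1032 to 3949, and 35 of the 134 cells, or 26.1% (18.9 to 34.4), lay under the lower limit of 2000 genes that the study's methods state, compared with 4.32% of the other cells. The cells of the other 11 clusters held a median of 450 summed counts per 10,000 of 12 microglia genes, with IN2 lower at 124 in its iKD and 142 in its WT cells, so that the ratios below set the cluster beside cells rich in microglia RNA. A cell barcode was found in both libraries for 9 barcodes of the series and for 1 among the cells described here.

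The cilium genes give a sequence feature that can be shown directly. Genes of motile cilia are switched on by FOXJ1 and RFX factors, and RFX factors bind the X-box, whose core is GTTGCC. In 300-base promoters from RefSeq (GRCm38.p6, from 250 bases before to 50 after the start of the gene), GTTGCC or its reverse complement GGCAAC was present for 20 of the 39 motile cilium genes that the table holds. The same letters were found for 14.1% of all 27025 gene symbols in the table, and for 4 of 20 astrocyte genes and 3 of 17 glycolysis genes. Some genes had more than 1 promoter: 20 of 43 cilium promoters held the letters, compared with 12.5% of all 32851. Promoters of the 4 such cilium genes with the highest levels in the cluster are given here 5′ to 3′, with GTTGCC and GGCAAC in capitals, because these genes reappear in the results. Pifo and Tekt1 each had 2 promoters, and only the 1 that held the letters is printed. Dynlrb2 encodes a dynein light chain, Pifo a protein of the ciliary base and Tekt1 a tektin filament of the axoneme.
Mlf1, chr3:67373847-67374146, plus strand: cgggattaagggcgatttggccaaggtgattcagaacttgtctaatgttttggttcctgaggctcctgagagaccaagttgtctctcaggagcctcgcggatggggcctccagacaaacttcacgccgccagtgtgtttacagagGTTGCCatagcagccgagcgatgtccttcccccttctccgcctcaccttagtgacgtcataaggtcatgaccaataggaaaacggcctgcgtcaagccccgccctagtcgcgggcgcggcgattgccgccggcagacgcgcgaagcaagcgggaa
Dynlrb2, chr8:116504765-116505064, plus strand: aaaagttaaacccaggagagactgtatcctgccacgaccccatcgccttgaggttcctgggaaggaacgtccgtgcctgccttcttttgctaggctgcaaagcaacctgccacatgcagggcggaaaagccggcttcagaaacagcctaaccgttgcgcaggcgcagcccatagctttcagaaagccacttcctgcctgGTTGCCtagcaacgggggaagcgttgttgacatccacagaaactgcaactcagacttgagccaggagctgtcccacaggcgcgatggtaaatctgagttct
Pifo, chr3:106001448-106001747, minus strand: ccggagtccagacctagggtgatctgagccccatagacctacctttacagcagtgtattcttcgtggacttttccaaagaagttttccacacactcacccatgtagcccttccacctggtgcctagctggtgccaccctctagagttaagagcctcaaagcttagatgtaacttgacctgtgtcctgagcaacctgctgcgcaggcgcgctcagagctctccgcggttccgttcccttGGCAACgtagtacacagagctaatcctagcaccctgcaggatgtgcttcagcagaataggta
Tekt1, chr11:72361833-72362132, minus strand: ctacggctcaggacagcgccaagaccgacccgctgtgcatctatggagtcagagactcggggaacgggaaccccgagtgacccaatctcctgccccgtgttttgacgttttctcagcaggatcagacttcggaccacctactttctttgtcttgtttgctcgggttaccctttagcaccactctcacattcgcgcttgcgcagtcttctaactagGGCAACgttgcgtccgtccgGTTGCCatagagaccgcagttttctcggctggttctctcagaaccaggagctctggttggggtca
The first base of the capitals lay 105 bases before the start in Mlf1, 51 before it in Dynlrb2 and 12 before it in Pifo, whereas Tekt1 held 2 copies, the first 35 bases and the last 15 bases before the start. The choroid transcription factor list held the letters in 10 of 20 matched genes, the choroid identity list in 1 of 4 and the list of secreted choroid proteins in 1 of 16. Of 2 other motifs searched on both strands, TGTTTAC, bound by forkhead factors, was found for 5 of the 39 cilium genes and 4.05% of all genes. TAATCC, bound by OTX factors, was found for 4 of 39 and 8.14% of all. The letters of these 3 motifs cannot overlap each other. A match describes letters only, and binding was not measured.

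The choroid identity genes were the clearest feature of the cluster. Enpp2, which encodes the secreted enzyme autotaxin, was at 43.2 (41.9 to 44.5) in the cluster and at 0.649 in the next highest cluster, IN2. Per cell, Ttr ran from 0 to 3953 counts per 10,000 UMIs with a median of 724, and Enpp2 from 0 to 183 with a median of 33.9. Ttr was absent from 1 cell, described with the WT cells, and the next lowest cell held 47.4. The remaining identity genes had levels between 1.20 and 4.39 and were each the highest of the 12 clusters. Folr1, the folate receptor of this epithelium, had a UMI in 79.9% of cells (72.1 to 86.3), Clic6, a chloride channel protein, in 82.1% (74.5 to 88.2), and Kcne2, a potassium channel subunit, in 52.2% (43.4 to 60.9). The share of other iKD cells with a UMI was 2.22% for Folr1, 1.07% for Clic6 and 0.409% for Kcne2, and none of these 3 genes had a UMI in more than 2 of the 5539 other WT cells. All 8 identity genes were detected together in 30 cells.

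Over all genes, 4939 reached a level of 0.5 in the cluster or in the pool of other cells, and 755 of them, 15.3%, were at least 4 times higher in the cluster. At least 4 times lower were 1085 genes, or 22%. The median log2 ratio over all 4939 genes was -0.65. All 8 choroid identity genes were above the 4-fold line, with a median log2 ratio of 7.52. These are descriptive counts, since the clusters were drawn on the same genes.

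**Figure D1:**
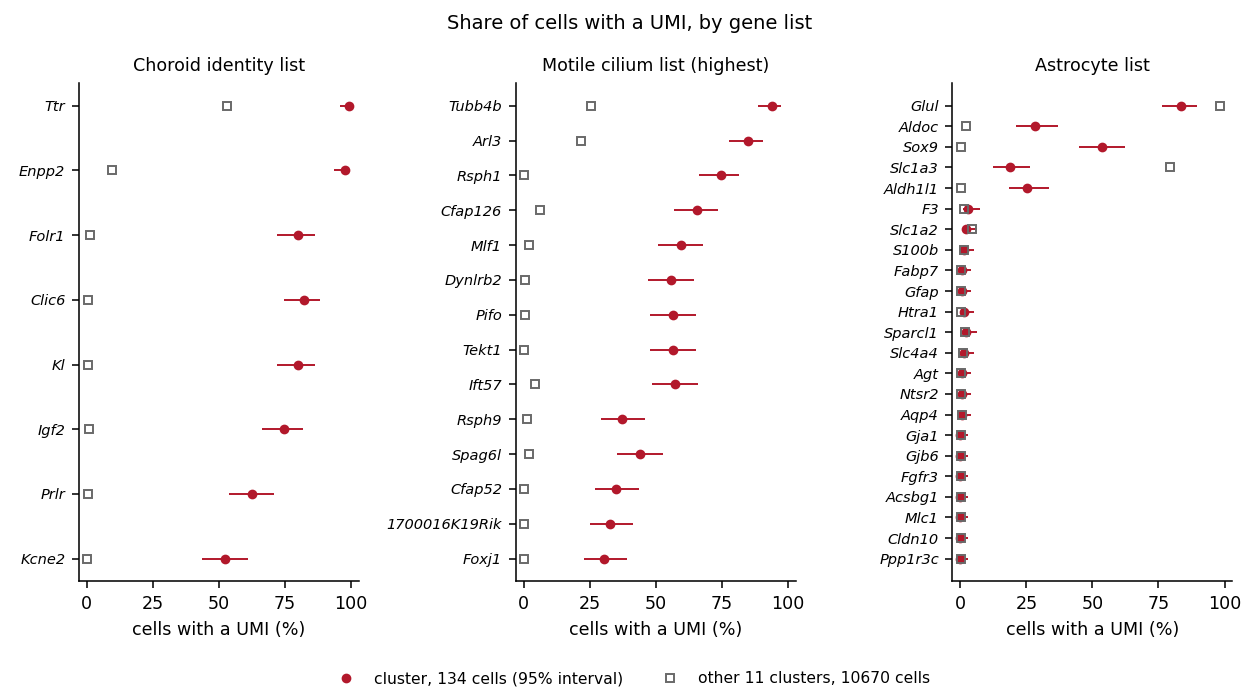
Share of cells with a UMI for each gene of the choroid identity list (left), the 14 motile cilium genes with the highest levels (centre) and all but 1 gene of the astrocyte list (right), in percent of cells. Filled circles are the 134 cells of the cluster with exact 95% intervals and open squares the 10670 cells of the other 11 clusters. The 8 identity genes lie between 52.2% and 99.3% in the cluster, and most of the astrocyte genes lie near 0.

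Genes of transport followed. Of 31 listed genes, 14 reached a level of 0.5 in the cluster or the other cells, 8 of these were at least 4 times higher, none were 4 times lower, and the median log2 ratio was 5.00. Car2, a carbonic anhydrase that supplies bicarbonate, was at 8.69, Fxyd1, a regulator of the sodium pump, at 6.76, Kcnj13, an apical potassium channel, at 3.74, and Atp1b1, the beta subunit of the sodium pump, at 2.60. Slco1c1, which carries thyroid hormone, was at 1.06. Aqp1, the water channel usually named for this epithelium, had a UMI in 14.2% of cells (8.76 to 21.3), at a level of 0.223. Slc4a5, a bicarbonate transporter, had one in 17.9%, and no UMI of Lrp2, an endocytic receptor, was found.

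Among genes of secreted proteins, Ttr had by far the highest level, at 1019, followed by Cst3 at 106 and Enpp2 at 43.2. The place of Cst3 rested on part of the cells, and its median was 24.4. It was at 367 in the 27 cells with the most microglia RNA, described below. In the 89 cells with the least, Cst3 was at 19.3 and Enpp2 at 48.7. Of 15 measured genes in a list of 24, 11 were at least 4 times higher and 1, B2m, was at least 4 times lower, with a median log2 ratio of 7.20. Ptgds, which makes prostaglandin D2 and is abundant in cerebrospinal fluid, was at 14.2, Ecrg4, a secreted peptide precursor, at 10.3, and Igfbp2, which binds insulin-like growth factors, at 6.66. Sostdc1, a BMP and WNT antagonist, was at 4.31 and Igf2 at 3.30. Clu, the chaperone clusterin, was at 6.68 in the cluster and at 0.176 in the next highest one, IN2. Apoe and Trf, for the carriers of lipid and iron, did not stand out, at 11.3 and 4.89 compared with 4.21 and 6.05 in the other cells. Cst3 was lower, at 106 and 384.

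Ttr is also a partner in retinoid transport, and genes of that path were present. Rdh5, a retinol dehydrogenase, was at 5.11. All 6 measured genes of the retinoid and thyroid hormone list were at least 4 times higher, and 7 of its 18 genes, among them Rbp4, Crym and the deiodinases Dio2 and Dio3, had no UMI.

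The transcription factors separated sharply. Msx1 was at 4.26 with a UMI in 77.6% of cells, and Otx2, a homeobox factor required for choroid plexus formation, was at 2.76 with a UMI in 73.9% (65.6 to 81.1). Outside the cluster, Otx2 had 21 UMIs in the iKD library and 1 in the WT library. The BMP-responsive genes Id1, Id3 and Id4 were at 1.63, 3.14 and 1.11. Of 9 measured factors, 7 were at least 4 times higher, with a median log2 ratio of 6.62, and Id2 and Rfx3 were not. In the list of axial position genes, Six3, a forebrain homeobox gene, had a UMI in 41.8% of cells, whereas the Hox genes listed, En1, En2, Gbx2, Pax2 and Pax8 had none. For each gene without a UMI, 0 of 134 cells allows a share of up to 2.24% of cells with a UMI.

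Cilium genes were high as a group. All 14 measured genes of the motile cilium list were at least 4 times higher, with a median log2 ratio of 5.49. Of the 46 genes found in the tables, 37 were at their highest in this cluster of the 12. Being highest here was common: it held for 1548 of the 3159 genes counted at the level limit of 0.5. Most of the 46 cilium genes lay under that limit, so their place among the clusters rests on few UMIs. Tubb4b, a beta-tubulin used in axonemes, was at 17.4 and Rsph1, a radial spoke protein, at 2.83. Of the genes with printed promoters, Mlf1 was at 1.63, Dynlrb2 at 1.55, Pifo at 1.48 and Tekt1 at 1.41, and each had a UMI in 56.0% to 59.7% of cells. Foxj1 had a UMI in 30.6% of cells (22.9 to 39.1) and Gmnc, a switch for multiciliated fate, in 17.2%. Of the 14 measured genes, 11 had a promoter in the table and 6 of these held the X-box core. Of further cilium genes used for the ependyma, the ciliated lining of the ventricles, Tmem212, Ccdc153, Sntn, Stoml3 and Fam183b had 0 UMIs in the 134 cells. The ependyma-leaning list as a whole was not absent. Of its 12 genes, 4 had no UMI, and the 2 measured genes, Mia and Vim, were at least 4 times higher.

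Epithelial genes were present in part. Of 5 measured genes, 3 were at least 4 times higher and 2, the junction genes Tjp1 and F11r, at least 4 times lower. Ezr, which links the brush border to actin, was at 6.66, and the keratins Krt18 and Krt8 were at 5.02 and 1.81. Cldn1, Cldn2 and Cldn3, of tight junctions, were detected in 6.72% to 8.96% of cells, and no UMI of Epcam was found. Among genes outside the lists, Chchd10, a mitochondrial protein, was at 34.4, and Cryab, Pcp4l1, Gsta4 and Ppp1r1b were at 12.7, 7.23, 6.15 and 5.82. In the other clusters none of these genes exceeded a level of 0.126.

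Genes of energy metabolism were also high. Of 16 measured glycolysis genes, 14 were at least 4 times higher, with a median log2 ratio of 3.13, and 1, the hexokinase gene Hk2, was 4 times lower. Gapdh was at 36.4 compared with 4.12, Ldhb at 31.7 compared with 3.65 and Aldoa at 17.9 compared with 1.51. Of 87 measured nuclear genes of oxidative phosphorylation, 72 were at least 4 times higher, with a median log2 ratio of 3.19. Ribosomal protein genes shifted less: 2 of 82 were at least 4 times higher. Their median log2 ratio was 0.79, compared with -0.65 over all measured genes. The metallothionein and antioxidant list had 13 of 15 higher, with Gpx4 at 31.3 and Mt3 at 24.1. Without the 1 cell that lacked Ttr, 12 of 15 were higher, because Mt1 went from 4.35 to 2.68. Mitochondrially encoded RNA took a median of 0.887% of UMIs in the cluster and 0.816% in the other cells.

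Astrocyte genes were few. Of 24 listed genes, 7 had no UMI in the 134 cells: Gja1 and Gjb6, which form astrocyte gap junctions, Fgfr3, Cldn10, Mlc1, Acsbg1 and Ppp1r3c. Gfap and Aqp4, for the intermediate filament and the water channel of astrocytes, had 1 UMI each. The median share of cells with a UMI was 1.12% over the 24 genes, compared with 79.9% over the 8 choroid identity genes. Of 5 measured astrocyte genes, 3 were at least 4 times higher than in the other cells, among them Sox9 at 1.52 and Aldoc at 1.57. The Aldoc level rested in large part on 1 cell, the WT cell without Ttr described below, and was 0.543 over the other 133 cells and 0.555 over the 130 iKD cells, whereas Sox9 was 1.53 without that cell and the count stayed at 3 of 5. Slc1a3, a glutamate transporter, was at least 4 times lower at 0.698. Aldh1l1, a folate enzyme, had a UMI in 25.4% of cells. In the neural stem cell list, Hopx was at 2.17, Vim at 0.670 and Sox2 at 0.632, and all 5 measured genes were at least 4 times higher, also without that WT cell, where Hopx was at 1.72 and Sox2 at 0.503.

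Markers of other brain cells were near 0. None of the genes listed for border macrophages, oligodendrocytes, their precursors, endothelium, mural cells, fibroblasts and meninges, red blood cells, intermediate progenitors, neuroblasts or granule neurons reached a level of 0.5 in the cluster or in the pool of other cells. In the VEGF pathway list, 1 of 3 measured genes, Nrp1, was at least 4 times lower and none were 4 times higher. Vegfb was at 1.47, Vegfa at 0.0511, and the receptor genes Kdr, Flt1 and Flt4 had no UMI. Of the cell cycle list, 2 of 8 measured genes were at least 4 times higher, the inhibitor Cdkn1c at 7.39 and the cyclin Ccnd2 at 2.91, and 2, Ccnd1 and Cdk6, were at least 4 times lower. Of the 11 measured IGF and BMP signalling genes, 5 were higher and 4, Bmpr2, Igf1r, Smad1 and Bmpr1a, were lower. Over all 4939 measured genes, 15.3% were at least 4 times higher and 22% at least 4 times lower. The VEGF and cell cycle counts rest on 3 and 8 genes and are not read as traits of those lists. In the ependyma-leaning list, Mia, at 0.929, and Vim were the only genes above a level of 0.5, and both were at least 4 times higher.

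The exception was microglia RNA. The summed level of 12 microglia genes had a mean of 95.2 (93.3 to 97.2) over the 134 cells, compared with 447 in the iKD cells of the other clusters. It was spread over the cells very unevenly, from 0 to 583, with a median of 7.13. In 89 cells the sum was under 50, in 18 it was between 50 and 200, and in 27 it was 200 or more. These limits were chosen after the values were seen and mark ranges along a scale, not types: 7 cells lay within a factor of 1.5 of the lower limit and 13 of the upper. All 4 WT cells fell in the lowest range. The median depths of the 3 ranges were 8242, 5548.5 and 7806 UMIs.

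**Figure D2:**
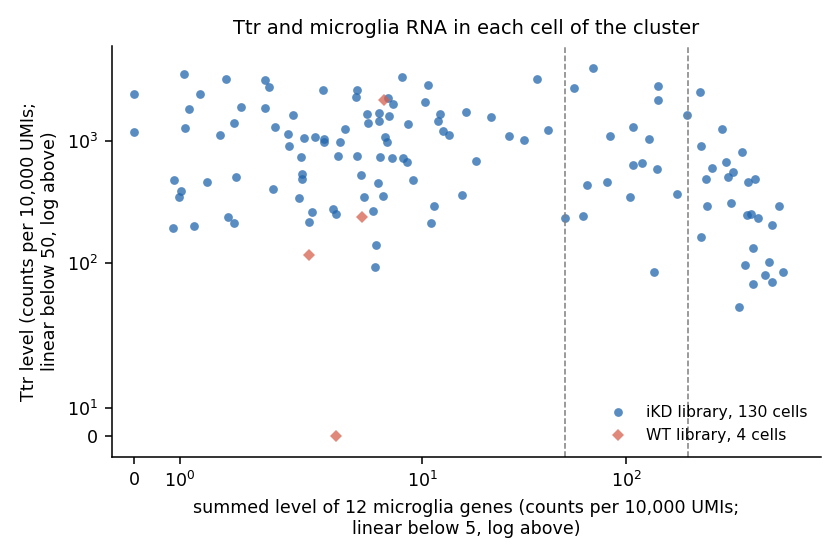
Each point is 1 cell of the cluster, with the summed level of 12 microglia genes on the horizontal axis and the Ttr level on the vertical axis, both in counts per 10,000 UMIs and linear near 0 and log above, and the dashed lines are at 50 and 200. Of 134 cells, 89 lie left of 50, and in the 27 cells right of 200 Ttr lies between 47.4 and 2530.

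Cells of the highest range carried both sets of genes. All 12 microglia genes had a UMI in 25 of these 27 cells, and their summed level was 377, or 84.4% of that in the other iKD cells. Ttr ran from 47.4 to 2530 with a median of 292 in the same cells, and at least 5 of the 8 choroid identity genes were present in 18 of 27, or 66.7% (46.0 to 83.5). In the lowest range the median cell held a summed microglia level of 4.65 and UMIs of 3 microglia genes, and 85 of 89 cells, 95.5% (88.9 to 98.8), had 5 or more choroid identity genes. Ttr was present in 88 of these 89 cells, from 93.5 to 3517, with a median of 1038 over the 89. Within the microglia sum, C1qa gave 13.6% in the lowest range, 16.2% in the highest and 15.9% in the other iKD cells, and C1qb 15.7%, 14.9% and 13.3%. The share of Cx3cr1, the fractalkine receptor, was 2.64% in the lowest range, compared with 8.19% in the highest and 8.71% in the other iKD cells. Doublets were not called, and whether cells of the highest range are pairs of cells was not tested.

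Choroid genes differed in how much of their level was present in the highest range. The level there was expressed as a percentage of the level in the lowest range, for listed genes that reached a level of 1 in the lowest range, with less than 10% of it in the other iKD cells. Genes were thus chosen on the level that is also the base of the percentage. This choice can lower the percentages, most for genes near a level of 1, and differences between lists were not tested. The median was 55.2% over the 8 identity genes, from 19.3% for Clic6 to 78.4% for Prlr, the prolactin receptor, and 49.5% over 10 genes of the secreted list, from 32.2% to 63.3%. Ttr, Enpp2 and Igf2 are in both of these lists. Over 5 transport genes it was 37.8%, from 17.5% for Car2 to 58.0% for Slco1c1. It was 17.6% over 11 cilium genes, from 10.1% for Ift57 to 33.3% for Tekt1, and 17.8% over 6 transcription factors, from 13.2% for Otx2 to 34.9% for Id4. Glycolysis genes, antioxidant genes and nuclear oxidative phosphorylation genes had medians of 19.6%, 24.6% and 24.3%. The glycolysis genes include Aldoc, at 6.56%, whose level rested in large part on the WT cell without Ttr. The ranges of the lists overlapped: Ptgds, the lowest of the secreted genes, was just under Tekt1, and Clic6 and Car2 lay among the cilium genes. Enpp2 was at 48.7 in the lowest range and 23.1 in the highest, and Otx2 at 3.34 and 0.441.

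**Figure D3:**
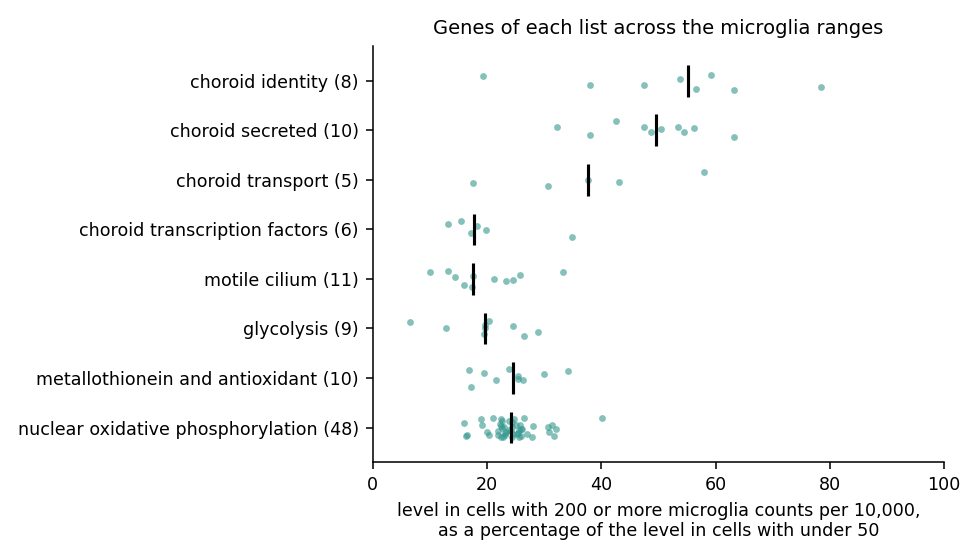
Level of each gene in the 27 cells with a summed microglia level of 200 or more, as a percentage of its level in the 89 cells with less than 50, by gene list with the number of genes in brackets. Each point is 1 gene and each bar the median of the list. Secreted genes have a median of 49.5%, transport genes 37.8% and cilium genes 17.6%, and the lists overlap. Genes were chosen by their level in the 89 cells, which can lower the percentages.

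RNA that is kept in the nucleus was nearly absent from the lowest range. Malat1, a nuclear long noncoding RNA, had 71 UMIs in the 89 cells, ran from 0 to 7.78 with a median of 0.836, and was at 0 in 43 of them. In the 27 cells of the highest range it ran from 37.9 to 499 with a median of 172, above every cell of the lowest range. The 18 cells of the middle range spanned both, from 0 to 828, with a median of 2.67 and 4 cells at 0. In the other iKD cells the median was 248, and 17 of 5131 cells, or 0.331%, were at or below 7.78. Of these 17 cells, 16 belonged to the cluster that the study left undefined, where 16 of 19 iKD cells and 16 of 21 WT cells lay at or below this value. In the 40 cells of that cluster Malat1 had a median of 3.57, no UMI of Neat1 or Kcnq1ot1 was found, and Xist was in 2 cells. Low nuclear RNA was thus shared with the undefined cluster, whose cells held a median of 662 summed counts per 10,000 of the 12 microglia genes and at most 2 of the 8 choroid identity genes. Within the cluster, Neat1, Kcnq1ot1 and Xist gave the same order as Malat1, with 1, 0 and 0 UMIs in the lowest range and levels of 0.975, 0.657 and 5.95 in the highest, compared with 1.0, 1.02 and 8.12 in the other iKD cells. After thinning every cell to 3000 UMIs, which left out 5 cells of the lowest range, a Malat1 UMI was found in 28.6% of the cells of that range and in 100% of 1000 other iKD cells drawn at random. The lowest range was not shallower, with a median of 8242 UMIs and 2547 genes.

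**Figure D4:**
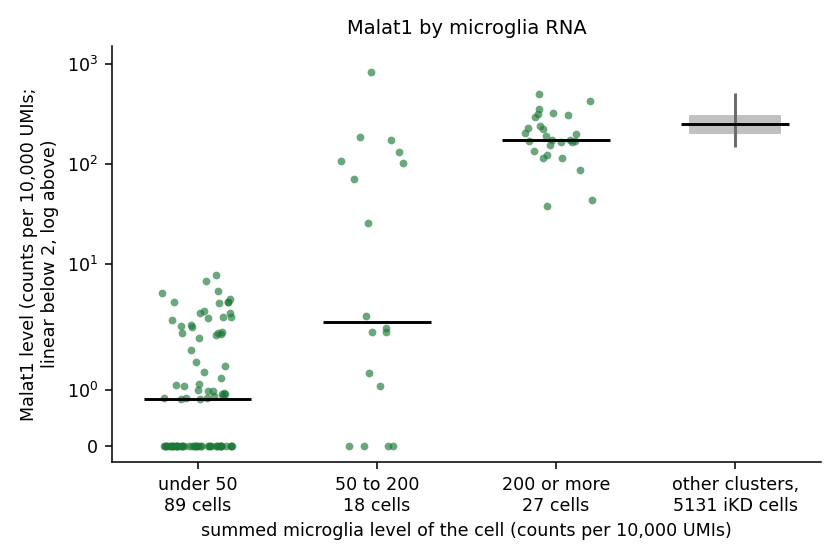
Malat1 level in counts per 10,000 UMIs, linear below 2 and log above, for cells of the cluster by their summed microglia level, with 1 point per cell and the median as a bar, and for the iKD cells of the other clusters as the median, quartiles (box) and 5th to 99th percentiles (line). Cells with a sum under 50 lie between 0 and 7.78, and cells with 200 or more between 37.9 and 499. The 18 cells between 50 and 200 spread from 0 to 828.

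The same cells were low in genes of the immediate early response. The summed level of 18 genes induced by tissue dissociation had a median of 5.20 in the lowest range, 136 in the highest and 168 in the other iKD cells. Fos was at 0.130, 13.3 and 18.6 and Jun at 0.314, 39.1 and 40.3. Other cells were low as well: in the iKD cells of the undefined cluster the sum had a median of 7.42, with Fos at 0.643 and Jun at 4.87, and in those of the NB cluster the median was 59.2, with Fos at 2.68 and Jun at 20.3. Over the whole cluster, 11 of 15 measured genes of this list and 4 of 7 glucocorticoid response genes were at least 4 times lower than in the other cells, and in the lowest range alone 14 of 15 and 6 of 7 were. In that range, 942 of 5094 genes, 18.5%, were at least 4 times higher than in the other cells and 1799, 35.3%, at least 4 times lower.

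Sex-linked RNA differed in the same way. In the lowest range 88 of 89 cells had no UMI of Xist or of 4 Y-linked genes (Ddx3y, Eif2s3y, Uty and Kdm5d), and 1 cell held 3 Y-linked UMIs. In the highest range 19 cells had Xist alone, 6 a Y-linked gene alone, 1 both and 1 neither. Of the 18 cells of the middle range, 6 had Xist alone and 12 neither. Among the other iKD cells 6.78% had neither. The sex of the mice behind the cells of the lowest range could not be read from these genes.

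Within the lowest range, cells differed in Ttr by a factor of 37.6. Among the 88 cells with a Ttr UMI, Ttr ran from 93.5 to 3517, with quartiles at 444 and 1673, and reached 35.2% of the UMIs of a cell. Other genes were set against it as counts per 10,000 UMIs that were not Ttr, and correlations are given as descriptions over cells of 2 libraries. Spearman's rho was 0.91 for Enpp2, 0.85 for Ecrg4, 0.84 for Bsg, a surface glycoprotein, 0.82 for Apoe and 0.78 for Clu. Over the 3008 genes that reached a level of 0.5, the median rho was -0.07, and the central range from the 5th to the 95th percentile was -0.28 to 0.31. The coefficient was -0.12 with the number of UMIs, with the summed microglia level 0.09, and with the mitochondrial share 0.46.

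Genes of secretion and, less closely, of transport followed Ttr, and genes of cilia and transcription factors did not. Of 14 transport genes, 13 had a positive rho, with a median of 0.33. Of the 7 other identity genes, 6 had a positive rho, with a median of 0.31. All 14 secreted genes, which include Enpp2 and Igf2 of the identity list, had a positive rho, with a median of 0.66. The 12 measured genes of the endoplasmic reticulum, a list added after the values were seen, were also all positive, with a median of 0.46, and Hspa5, the main chaperone there, was at 1.03 in the 29 cells with the least Ttr and at 11.3 in the 29 with the most. Enpp2 was at 12.2 and 118 in the same cells and Igfbp2 at 2.34 and 16.3. By contrast, Tubb4b was at 23.6 in both sets and Otx2 at 3.96 and 3.91. The median rho was -0.06 over 19 cilium genes, -0.02 over 8 transcription factors, -0.16 over 88 nuclear oxidative phosphorylation genes and -0.06 over 78 ribosomal protein genes. Chchd10 had a rho of -0.30, at 53.1 and 42.2. The mitochondrial share was 0.465% and 1.13% at the median of these sets, and its part in these relations was not tested.

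**Figure D5:**
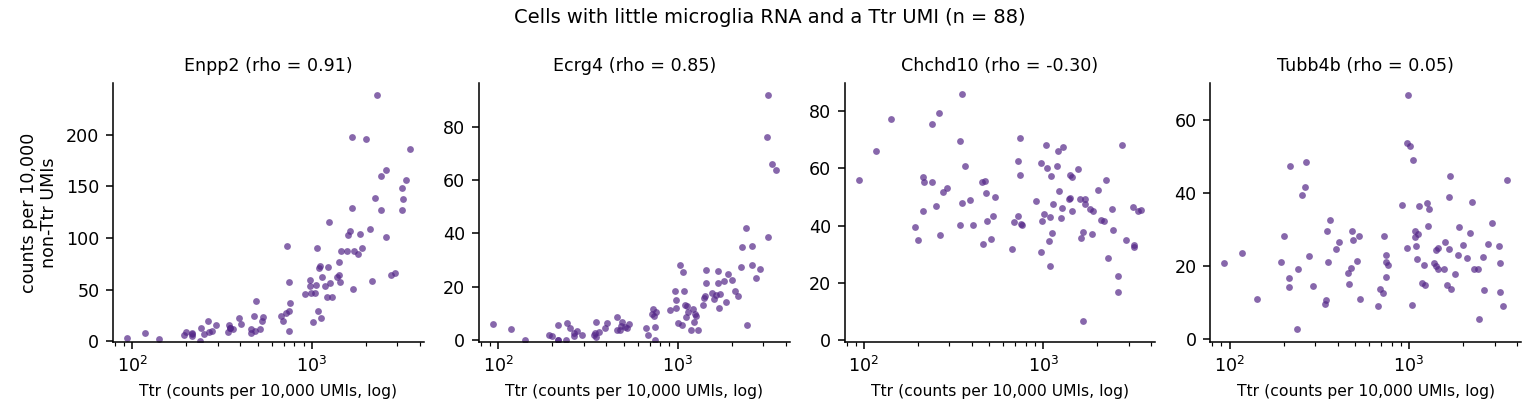
Ttr level on a log axis in counts per 10,000 UMIs, and the level of Enpp2, Ecrg4, Chchd10 or Tubb4b in counts per 10,000 UMIs other than Ttr, in the 88 cells with a summed microglia level under 50 and a Ttr UMI. Each point is 1 cell. Enpp2 and Ecrg4 climb with Ttr, with rho of 0.91 and 0.85, and Chchd10 and Tubb4b, with -0.30 and 0.05, do not.

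The 4 WT cells were not alike. The first 3 held 61, 670 and 94 UMIs of Ttr, or 117, 2179 and 239 counts per 10,000, with 5, 6 and 5 of the 8 choroid identity genes and 2 Malat1 UMIs in all. The fourth, with 2247 UMIs in total, had no UMI of Ttr or of any choroid identity gene. Its summed level of astrocyte genes was 218, compared with 55.6 in the next highest cell of the cluster and a median of 7.20. It held 31 UMIs of Aldoc, 14 of Glul, 51 of Mt1, 33 of Mt3, 46 of Ckb and 14 of Hopx, with 1 each of Gfap and S100b and none of Aqp4 or Slc1a3. It was the only cell of the 134 without Ttr, and it too held 1 Malat1 UMI. The cluster made up 2.47% of the iKD library (2.07 to 2.93) and 0.0722% of the WT library (0.0197 to 0.185), and with 1 pool of mice for each genotype the genotype and the pool cannot be told apart.

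Choroid RNA was also found outside the cluster, and at different levels in the 2 libraries. Ttr had a UMI in 99.7% of the 5131 other iKD cells and 9.84% of the 5539 other WT cells. The levels were 10.4 (10.3 to 10.5) and 0.155 (0.143 to 0.168), and in the iKD library the level ran from 9.44 in IN1 to 17.3 in the undefined cluster. The lowest cell of the cluster with any Ttr lay at 47.4, and 14 of the other iKD cells, 0.273%, reached that value, with the highest at 225. The other choroid genes were present outside in proportions near those inside, but not the same. For every 1000 UMIs of Ttr, the other iKD cells held 30.9 of Enpp2 (29.1 to 32.8), 3.22 of Folr1 (2.66 to 3.86) and 8.62 of Ecrg4 (7.69 to 9.63), compared with 43.3, 4.11 and 9.96 in the lowest range. They held 14.5 of Chchd10 (13.3 to 15.8), compared with 39.0. The part that RNA free in the cell suspension has in the Ttr of the other clusters was not tested.

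At the other end of the scale lay genes that the other clusters use. The 15 lowest log2 ratios, among genes that reached a level of 1 in the other cells, ran from -3.63 for Rptor to -3.23 for Fry and included C5ar1, a complement receptor, Lpar6 and Adamts1. Of the 15, 8 had no UMI in the lowest range of microglia RNA, and in the highest range the lowest level of the 15 was 0.251, for Adamts1. The 12 microglia genes were all at least 4 times lower in the cluster, with a median log2 ratio of -2.23 over the cluster and -6.12 in the lowest range.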

How the data were processed

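Single EYFP+ cells of the DG were sequenced on a 10X platform, 1 WT and 1 iKD library. Per the submitters' processing notes, Cell Ranger 7.0.1 and Seurat 4.1.1 were used. The notes name a human genome build although the genes are those of mouse, so the build is not clear. The authors deposited 12 tables, 1 for each cluster, of natural log values, the log of 1 plus counts per 10,000 UMIs of a cell. Their methods state limits on gene number and mitochondrial share, meant to leave out multiplets, and doublets were not called here.

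UMI counts were recovered from the deposited natural log values as multiples of the smallest value of each cell, and 100% of 32261786 values came out whole within 0.001. All 10804 cells and 32285 genes were used, and 0 columns were left out. The WT library held 44142118 UMIs and the iKD library 37451839, of which 14454 and 989329 were in the cluster. Log2 ratios used a pseudocount of 0.01. Intervals are exact Poisson for levels and exact binomial (Clopper-Pearson) for shares, at 95%, and the limit for a count of 0 is 3 counts. All cover counting error only, with 1 library per genotype, and no p-value was computed.

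The members and the gene lists were chosen with earlier results of these data known, and 4 lists (nuclear RNA, endoplasmic reticulum, nuclear oxidative phosphorylation, ribosomal proteins) and the ranges of microglia RNA were added after the values were seen. The genes named are those that mark the cluster, the genes of the lists, the 20 with the highest level, the 25 with the largest ratio over the highest other cluster, the 15 with the lowest ratio, genes that the study names for this cluster, and Xist with 4 Y-linked genes. Some genes that this rule names are not reported here by name. A few genes were named for their relation to Ttr, after their values were seen. Cells were thinned to 3000 UMIs, the largest multiple of 500 that 90% of the cluster's cells reach, which kept 125 of 134.

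Promoters are from RefSeq, matched by symbol. In simulated data with 200 changed genes among 32285, for 134 cells against 500, all UMI counts were recovered and all 200 directions were right, with a median absolute error of 0.12 (log2). Python 3.11.15, numpy 2.4.6, scipy 1.17.1, pandas 2.3.3 and matplotlib were used.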

Additional observations from a re-analysis of the deposited data

How the results depend on the processing

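Of 56 alternatives, 26 kept their result within the counting interval or within 1.5 times the count. No paired analysis was possible because each genotype has 1 library and no result comes from a test. The share of cells with at least 5 of 8 choroid genes, 88.1%, was 98.5% with 3 of 8 and 51.5% with 7 of 8, 59.7% when 2 UMIs were asked for and 67.2% after thinning, which lowers it by construction. Among cells with a summed microglia level under 25, 50 and 100, limits chosen after seeing the data, it was 95.3%, 95.5% and 94.8%. The 755 higher genes became 1846 with no level filter, 1363 at 2-fold, 445 at 8-fold and 440 against the highest other cluster. The 1085 lower genes became 639 with a pseudocount of 0.1, 2309 with no filter, 2168 at 2-fold, 59 at 8-fold, 53 against the lowest other cluster, and 1801, 1799 and 1799 in cells under the 3 microglia limits. The microglia level of 95.2 was 92.7 as summed UMIs, 101 without Ttr in the denominator, 98.0 in iKD cells and 7.13 as a median, and 5.53, 6.81 and 11.1 under the 3 limits. Ttr outside the cluster, 10.4 in the iKD library, was 10.1 as summed UMIs and 9.58 as a median, and in the WT library, 0.155, it was 0.141 and 0. Without the 1 cell that lacks Ttr, also chosen after seeing the data, the share was 88.7%, the higher and lower genes 752 and 1082, and the microglia level 95.9. The cause of these shifts was not tested beyond what each setting does by construction. Under the microglia limits of 25, 50 and 100 there were 85, 89 and 96 cells, with Malat1 levels of 1.21, 1.23 and 3.71.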
